A study of Danio rerio with 8 samples.

Results

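The 4 libraries of the transgenic zebrafish line lf:YAP differed in how much yap1 message they held, and they were put in order by that level to see which other genes followed it. Each library was total RNA from a pool of 10 livers dissected from untreated larvae at 7 days of age, raised in well plates from day 3. The labels describe the line as having YAP activated in hepatocytes. They name neither the promoter nor the yap1 allele of the transgene, so counts on yap1 hold endogenous and any matching transgene message together. The 4 lf:YAP libraries are 4 of the 8 libraries of the series, and the 4 wild-type libraries were not used here. The order was chosen by the measured yap1 level of each library, so yap1 itself is no finding. Nothing in the labels tells if each pool had its own clutch or extraction, and differences between pools may in part be technical.

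YAP is the transcriptional co-activator at the end of the Hippo pathway. Kinases of the MST family activate those of the LATS family, which phosphorylate YAP and hold it in the cytoplasm. Unphosphorylated YAP enters the nucleus, binds TEAD factors and turns on genes of the cytoskeleton, of adhesion and of growth, among them Hippo components that feed back on YAP. In vertebrate liver, YAP is best known for its part in organ size and in the balance between hepatocyte and bile duct fate.

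The libraries held 2703059, 2668432, 3069996 and 3170508 counts on named genes in replicates 3, 1, 2 and 4. A single ribosomal RNA row took 29.0% to 32.0% of them, and mitochondrial rows took 28.1%, 26.4%, 23.6% and 19.8% in the same order. Expression is given as CPM (counts per 1000000 counts on named genes), scaled by the trimmed mean of M-values (TMM) over the 4 lf:YAP libraries. Any run of 4 values below is TMM-scaled CPM in replicates 3, 1, 2 and 4, from the least to the most yap1. CPM is not per length, so it is compared between libraries and not between genes. Intervals cover counting error only. No test was made, because the libraries were ordered by a measured value and because 4 libraries are too few for a correlation.

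yap1 stood at 329, 675, 1137 and 1466 CPM, which is a 4.45-fold (95% counting interval 4.12 to 4.83) span from replicate 3 to replicate 4. The counts behind these values were 704, 1758, 3983 and 5277. Each of the 3 steps was larger than counting error, at 2.05-fold, 1.68-fold and 1.29-fold. The order of the libraries was the same without TMM factors (260.4, 659, 1297 and 1664 CPM). This span chose the order and is a description.

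The same libraries also differed in RNA of other tissues, and replicate 3 stood apart. Of 29 listed names of exocrine pancreas genes, most of which encode digestive enzymes of acinar cells, 24 distinct genes are in the table. Their summed counts made up 1.52, 0.418, 0.492 and 0.439% of the counts on named genes along the yap1 order. Replicate 3 therefore held 3 times or more the share of any other library, and the other 3 shares did not follow yap1. Intestine markers gave 0.123, 0.0633, 0.0542 and 0.0632%, again highest in replicate 3. Skeletal muscle markers gave 0.239, 0.191, 0.173 and 0.162%, lower at each step; a large part of that sum was the enolase gene eno3 (1312, 1010.1, 894 and 1110.4 CPM), which was not in order. Bile duct and progenitor markers went the other way, with 0.262, 0.378, 0.477 and 0.69%. Macrophage and neutrophil markers were a small share (0.023, 0.00592, 0.00606 and 0.00924%), of which lect2l alone gave 556 of the 622 counts of replicate 3. The other 20 markers summed to 66, 86, 106 and 213 counts, or 0.00244, 0.00322, 0.00345 and 0.00672%. On the TMM scale this rest was not in order: in replicates 1 and 2 the whole list had 60.7 and 53.1 CPM and lect2l 27.7 and 22.8 CPM. Among the rest, csf1ra, a receptor gene of macrophages, had 4, 17, 32 and 71 counts, while mpeg1.1 (7, 11, 10 and 28 counts) was not in order. Erythrocyte markers were a smaller share (0.00303, 0.00296, 0.00326 and 0.00218%), with 6 of the 13 erythrocyte markers in the table at 0 in each library. Hepatocyte markers, 34 of them in the table and all detected in each library, summed to 6.14, 6.10, 5.13 and 5.40%. In bulk tissue, fewer cells of a type and less RNA per cell cannot be told apart.

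**Figure D1:**
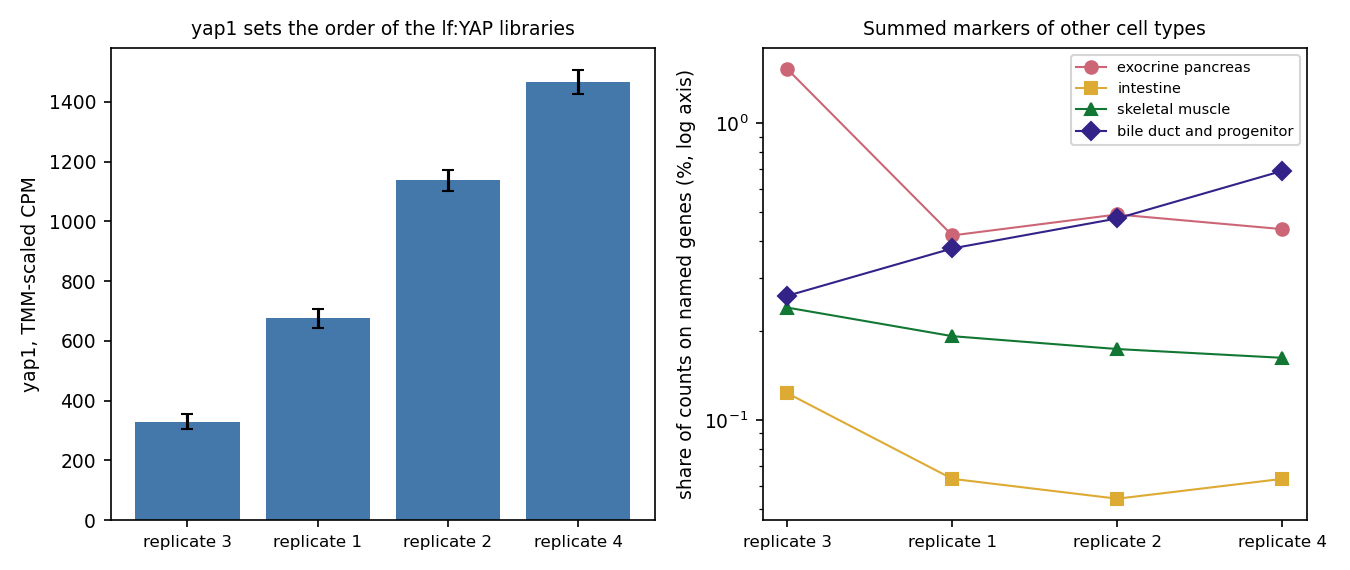
Left, yap1 in TMM-scaled CPM (bars start at 0; error bars are 95% counting intervals) for the 4 lf:YAP libraries from lowest to highest. Right, the share of counts on named genes, in percent on a log axis, held by the summed markers of 4 other cell types in the same libraries: exocrine pancreas drops from 1.52% in replicate 3 to between 0.418% and 0.492% in the others, while bile duct and progenitor markers go from 0.262% to 0.690%.

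Apart from yap1 itself, 4729 genes had at least 20 counts in every lf:YAP library. Of these, 523 (11.1%) had a higher CPM at each step of the yap1 order and 505 (10.7%) a lower one. With a difference of at least 2-fold between replicates 4 and 3, the counts were 157 upward (3.32%) and 248 downward (5.24%). Another view of the same genes found 696 level (14.7%), meaning that the highest library was at most 25% above the lowest, and 3076 (65.0%) were neither in order nor level. Only 71 level genes were also in order. In any order, 254 genes (5.37%) were at least 2-fold higher in replicate 4 than in replicate 3 and 409 (8.65%) at least 2-fold lower. When steps against the order were allowed within counting error, 233 genes were upward by 2-fold (4.93%) and 376 downward (7.95%). The median gene had a log2 ratio of replicate 4 over replicate 3 of 0.01, and the quartiles were -0.41 and 0.37.

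The split between upward and downward genes depended on the scaling. Without TMM factors, the median gene moved to a log2 ratio of 0.53, and the counts became 575 upward and 87 downward (1.84%) at 2-fold, so that 86.9% of them were upward in place of 38.8%. With totals that left out ribosomal RNA, mitochondrial rows and other-tissue markers, the median was 0.26 and the counts were 303 and 152, 66.6% upward. Of the 157 upward genes, 156 were also upward by 2-fold without TMM factors, against 87 of the 248 downward genes. Leaving out the factors shifts every gene by the same amount at each step, upward from end to end. Both numbers follow from that shift and do not compare how firm the upward and downward sets are. At any size, 25.2% of all genes were in upward order without TMM factors and 3.68% in downward order. These are the shares to set beside the counts without TMM factors below. Levels are therefore given relative to the median gene, and only 21 of the 696 level genes were also level without TMM factors. The 20-count floor weighs unevenly, since it equals 9.35 CPM in replicate 3 and 5.55 CPM in replicate 4, so a gene that was low in replicate 3 was left out more readily. A gene in order over all 4 libraries is by construction in order over any 3 of them, so counts over replicates 1, 2 and 4 cannot be lower than those over the 4.

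**Figure D2:**
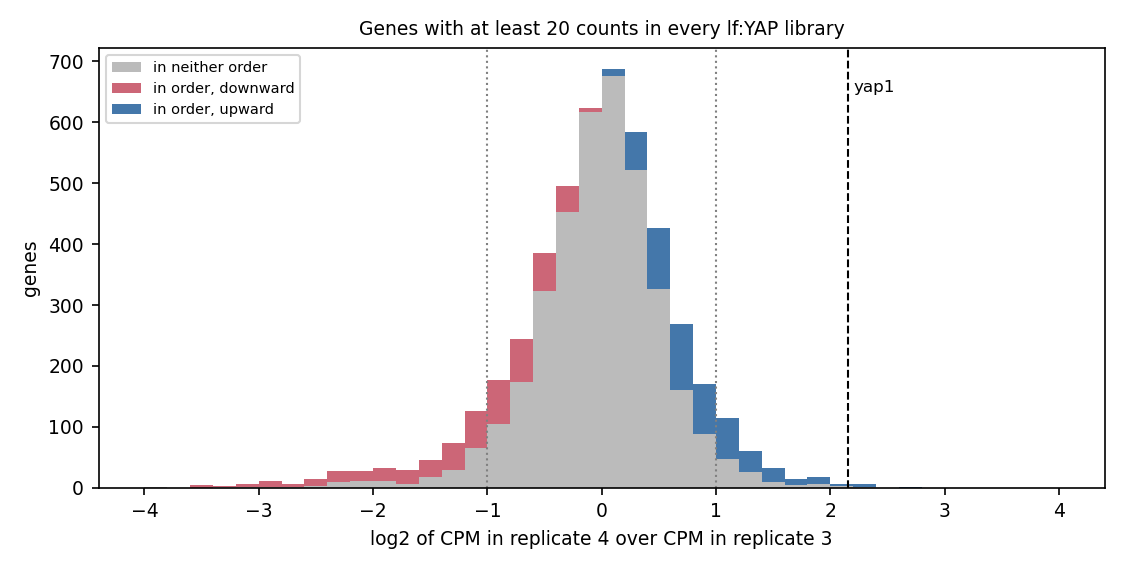
Number of genes (y axis) by the log2 ratio of CPM in replicate 4 over replicate 3 (x axis) for the 4729 genes with at least 20 counts in every lf:YAP library, coloured by whether CPM followed the yap1 order at each step. The dotted lines mark 2-fold and the dashed line marks yap1 at 2.15. At or past it lie 8 genes in upward order. Among genes in order, the downward tail is longer, with 72 genes at 4-fold or more against 11 upward.

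Among the direct YAP targets, amotl2b, an angiomotin that binds YAP, was the nearest in shape to yap1 of the 10 compared, at 118, 207, 426 and 430.5 CPM. Replicate 4 held 3.64-fold (95% counting interval 3.19 to 4.17) the level of replicate 3, and replicates 2 and 4 differed by less than counting error. Its paralog amotl2a stood at 65.9, 106, 206 and 202 CPM, and its last step was against the order by less than counting error. nuak2, a kinase and YAP target, stood at 23.4, 74.2, 73.1 and 90.8 CPM: replicate 3 was low and the other 3 libraries were close together. lats2, the kinase that phosphorylates YAP and is itself a YAP target, stood at 55.2, 76.1, 108 and 99.99 CPM, with its highest value in replicate 2. ccn2a, the connective tissue growth factor gene, also peaked in replicate 2, at 17.8, 30.7, 66.0 and 35.8 CPM. crim1, a transmembrane regulator of growth factors, had 15.0, 25.7, 24.0 and 35.0 CPM.

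Of 38 listed YAP/TEAD targets, 32 are in the table and 10 had the counts to be compared. Strictly, 1 of the 10 followed the order upward (amotl2b) and none downward, against 11.1% and 10.7% of all genes. When a step against the order was allowed as long as it lay within counting error, 4 of the 10 were upward by 2-fold (amotl2a, amotl2b, nuak2 and crim1), against 4.93% of all genes. The median log2 ratio of the 10 was 1.12, and replicate 3 held the lowest value of 9 of them, against 30.4% of all genes. Over replicates 1, 2 and 4, 1 of the 10 was in upward and 1 in downward order, against 23.1% and 17.5% of all genes, and the median log2 ratio of replicate 4 over replicate 1 was 0.41. Without TMM factors 4 of the 10 were in upward order and none in downward order, with a median of 1.64. amotl2b was 2.08-fold higher in replicate 4 than in replicate 1, next to 2.17-fold for yap1. lats2 was 1.31-fold and nuak2 1.23-fold higher over the same interval. amotl2b, lats2 and nuak2 thus did not follow yap1 alike: amotl2b differed about as much as yap1 over the upper 3 libraries, while most of the difference in nuak2 lay in the step from replicate 3 to replicate 1.

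Of 29 Hippo pathway components with enough counts, 24 were higher in replicate 4 than in replicate 3, against 2392 of all 4729 genes. The order was followed upward by 7 (24.1%), 3 of them by 2-fold, and downward by none, against 11.1% and 10.7% of all genes. The median log2 ratio was 0.40. Without TMM factors 12 of the 29 were in upward order and none in downward order, with a median of 0.92. The 3 at 2-fold or more were amotl2b, amot (16.8, 24.2, 33.4 and 34.2 CPM), another angiomotin, and wwc3 (16.4, 18.1, 27.4 and 36.1 CPM), a member of the KIBRA family that promotes LATS activity. fat1a, an atypical cadherin upstream of the pathway, had 137, 172, 177 and 181 CPM. taok1b, a kinase that acts on the MST kinases, had 109, 109, 149 and 154 CPM. The small GTPase gene cdc42 (28.1, 37.6, 43.7 and 46.9 CPM) and the tight junction gene tjp1a (49.5, 54.2, 70.8 and 71.7 CPM) were also in upward order. The core kinase genes were not: stk3, which encodes an MST kinase, had 18.2, 11.9, 17.4 and 21.4 CPM, lats1 had 14.5, 16.1, 20.6 and 13.9 CPM, and the adaptor gene sav1 had 13.6, 13.4, 18.3 and 15.6 CPM. wwtr1, the gene for the YAP paralog TAZ, stood at 10.3, 9.99, 10.8 and 12.8 CPM, with no order.

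The 10 genes in upward order with the largest differences had the following levels. Of them, flna is on the list of actin and adhesion genes. bcam, a laminin receptor of the immunoglobulin family, stood at 17.8, 51.1, 86.2 and 117 CPM, 6.57-fold (95% counting interval 4.71 to 9.41) from end to end. flna, the actin crosslinker filamin A, stood at 99.6, 266, 569 and 621 CPM, 6.24-fold (95% counting interval 5.42 to 7.21). All 3 steps of both genes were larger than counting error. sptb, a beta-spectrin of the membrane skeleton, had 11.7, 28.1, 38.8 and 55.5 CPM. dspb, a desmoplakin that anchors intermediate filaments at desmosomes, had 27.11, 52.2, 71.4 and 110.3 CPM. lamb1b, a laminin beta chain, had 9.35, 21.1, 35.4 and 39.4 CPM, and col18a1a, a collagen of basement membranes, had 26.2, 31.1, 42.0 and 118 CPM. In col18a1a replicate 4 was far above the other 3 libraries, whereas lamb1b differed mainly over the first 2 steps. The other genes of the 10 were chst6, a carbohydrate sulfotransferase (10.3, 35.7, 43.1 and 51.9 CPM), erbb3a, a receptor of the epidermal growth factor receptor family (9.35, 23.8, 25.4 and 43.05 CPM), sema3b, a secreted semaphorin (18.7, 35.7, 50.8 and 80.5 CPM), and mgll, a monoglyceride lipase (15.4, 40.3, 54.5 and 61.7 CPM). Another 2 clone-named genes in this range were passed over. These 10 were ranked on this very ratio, so their size is a description. Among genes in upward order, gnb1a, at 2.002-fold, was the last inside the 2-fold limit, and slc4a2b, at 1.993-fold, was the first outside it.

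Likeness to yap1 in shape was measured as the root mean square difference in log2 CPM after each gene was centred on its mean over the 4 libraries. The 10 nearest genes included lamb1b, the nearest of all, at 0.0917, followed by sptb (0.107), dennd2b (0.126), sema3b (0.133), myh9b (0.137), dspb (0.146), amotl2b (0.148), mylka (0.160) and gramd1bb (0.176). dennd2b, a DENN domain gene whose family activates Rab GTPases, had 32.7, 60.7, 88.8 and 126 CPM. myh9b, a non-muscle myosin heavy chain, had 256, 428, 731 and 893 CPM. mylka, a myosin light chain kinase, had 61.7, 134, 219.9 and 220.0 CPM. Of the 10, only gramd1bb (9.82, 23.4, 44.8 and 42.8 CPM), a sterol transfer protein gene, was not in strict order. The measure was taken over 4 libraries and 4729 genes, and it uses the same values that set the order.

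**Figure D3:**
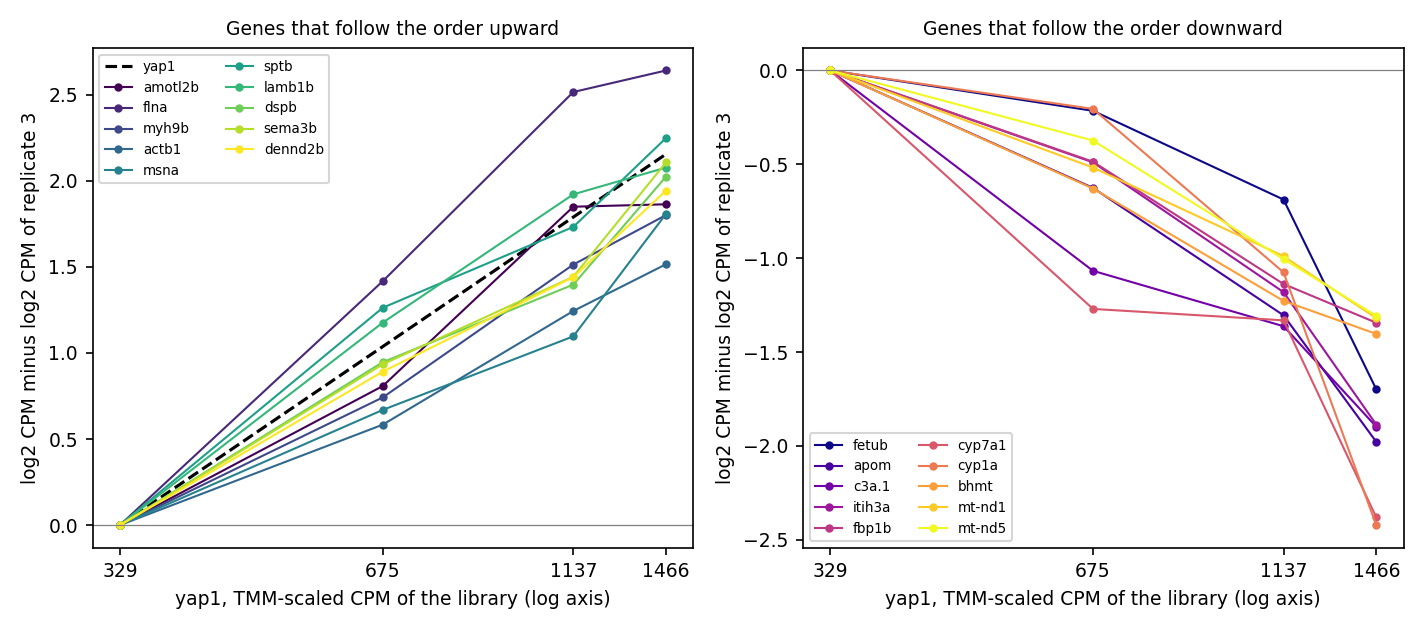
log2 CPM minus log2 CPM of replicate 3 (y axis) against the yap1 CPM of the library (x axis, log scale) for 10 genes in upward order (left, with yap1 as the dashed line) and 10 in downward order (right), each line 1 gene and each point 1 library. flna lies above yap1 at 2.64 in replicate 4; cyp1a and cyp7a1 lie lowest on the right, at -2.42 and -2.38.

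Genes of the actin cytoskeleton and adhesion were higher towards the high-yap1 end as a list. Of 29 with enough counts, 15 (51.7%) followed the order upward, 10 of them by 2-fold, and 1 followed it downward, against 11.1% and 10.7% of all genes. Without TMM factors 18 of the 29 were in upward order and 1 in downward order, with a median of 1.52. The median log2 ratio was 1.003, against 0.01 over all genes, and 23 of the 29 were highest in replicate 4, against 29.1% of all genes. actb1 and actb2, which encode cytoplasmic actins, had 164, 246, 389 and 469 CPM and 1589, 2126, 3048 and 4342 CPM. msna, the moesin gene, which links actin to the membrane, had 21.5, 34.2, 45.97 and 75.3 CPM. The related ezrin genes ezra and ezrb had 228, 332, 432 and 447 CPM and 62.6, 75.7, 95.7 and 107 CPM. tln1, the talin that couples integrins to actin, had 50.02, 82.6, 93.4 and 106 CPM, and lmna, the nuclear lamina gene, had 54.7, 74.2, 119.9 and 124 CPM. The myosin light chain gene myl12.1 had 47.7, 54.6, 59.11 and 89.2 CPM, and the actin-severing cofilin gene cfl1 had 95.8, 131, 162 and 179 CPM. cnn2, a calponin, had 37.4, 72.6, 177 and 135 CPM, with its highest value in replicate 2. The profilin genes were not in order, with 30.9, 30.0, 19.7 and 32.2 CPM for pfn1 and 43.9, 41.5, 52.5 and 44.2 CPM for pfn2l. The 1 downward gene was the tropomyosin gene tpm1, at 31.8, 24.97, 9.14 and 8.61 CPM; tropomyosins are also abundant in muscle.

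The same list was also read over the 3 libraries with alike exocrine shares. Over replicates 1, 2 and 4, 17 of the 29 were in upward order and 2 in downward order, against 23.1% and 17.5% of all genes, and the median log2 ratio of replicate 4 over replicate 1 was 0.60. Over that interval flna was 2.34-fold higher, msna 2.20-fold, myh9b 2.08-fold and actb1 1.91-fold. bcam, which is not on the list, was 2.28-fold higher. These genes are in upward order over all 4 libraries, so their direction here was fixed in advance and only the sizes are described. The part of other cell types in these values was not tested; the listed stellate and mesenchymal markers held 0.0102, 0.0121, 0.00919 and 0.01% of counts and the endothelial markers 0.0163, 0.0263, 0.0335 and 0.0342%. Of 6 endothelial genes with enough counts, 1 was in upward order (16.7%), against 11.1% of all genes. It was the transcription factor gene fli1a (9.35, 11.5, 14.0 and 14.7 CPM), a difference within counting error. All 6 had a log2 ratio above 0 (median 0.43), against 2392 of all 4729 genes. cdh5, the endothelial cadherin gene, had 29.4, 47.3, 64.5 and 56.1 CPM.

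Most of the bile duct and progenitor markers compared were highest in replicate 4. The keratin genes krt18a.1 (854, 1036, 1282 and 1526 CPM) and krt8 (1370.1, 1628, 1687 and 2302 CPM) followed the order, by 1.79-fold and 1.68-fold. krt18a.1 did so with every step larger than counting error. Of 9 such markers with enough counts, these 2 (22.2%) were in upward order, against 11.1% of all genes. Replicate 4 was the highest library for 7 of the 9, against 29.1% of all genes, with a median log2 ratio of 0.75. Without TMM factors 6 of the 9 were in upward order and none in downward order, with a median of 1.27. epcam, an epithelial adhesion molecule gene, had 19.6, 39.96, 31.4 and 80.0 CPM. sox9b, a transcription factor gene of bile duct cells, had 11.2, 16.9, 15.1 and 27.5 CPM, and anxa4, an annexin gene, had 877, 1016, 993 and 1926 CPM. In each of the 3, replicate 1 was above replicate 2, against the order. Replicate 4 was 2.002-fold above replicate 1 for epcam. Of the 9 markers, 2 were lower in replicate 4 than in replicate 3. They were krt18b (35.5, 14.2, 12.8 and 28.3 CPM) and tm4sf4 (52.4, 26.1, 71.4 and 46.9 CPM). krt8 and krt18a.1 are also expressed in other simple epithelia.

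Among signalling and transcription factor genes, 3 of 17 genes (17.6%) of the Notch, Wnt and TGF-beta list were in upward order, against 11.1% of all genes: the signal transducer gene smad3a (20.6, 26.5, 33.7 and 39.2 CPM), the receptor gene tgfbr2b (24.8, 31.1, 33.4 and 41.7 CPM) and the receptor gene notch2 (27.11, 29.2, 29.4 and 43.6 CPM). axin2, a Wnt target, was in downward order (10.3, 9.22, 6.85 and 6.67 CPM), a difference within counting error. The list's median log2 ratio was 0.35. Without TMM factors 8 of the 17 were in upward order and none in downward order, with a median of 0.87. Of 12 immediate early genes, 2 were in upward order (atf3 at 19.6, 20.8, 38.3 and 40 CPM and fosl2 at 21.5, 24.6, 34.5 and 38.6 CPM) and 2 in downward order (klf9 at 158, 138, 137 and 88.0 CPM and btg2 at 21.0, 18.1, 17.7 and 13.1 CPM). Each share was 16.7%, not far from the 11.1% and 10.7% of all genes. egr1 and jun were not in order. Without TMM factors 2 of the 12 were in upward order and none in downward order, with a median of 0.64. Of 5 cell cycle genes with enough counts out of 46 listed, 2 were in upward order and none in downward order, against 11.1% and 10.7% of all genes. The 2 were the chromatin genes hmgb2b (11.7, 12.7, 15.1 and 31.9 CPM) and hmgb2a (23.4, 24.97, 27.7 and 40 CPM). ccnd1, which encodes cyclin D1, had 18.7, 25.7, 25.4 and 30.8 CPM. The rest of the 45 cell cycle genes in the table were below 20 counts in at least 1 library.

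On the downward side, hepatocyte genes were lower towards the high-yap1 end as a list. Of 33 hepatocyte markers with enough counts, 16 (48.5%) followed the order downward, 11 of them by 2-fold, and none upward, against 10.7% and 11.1% of all genes. The median log2 ratio was -0.93, or -0.41 without TMM factors, where 10 of the 33 were in downward order and 1 in upward order. fetub, a fetuin secreted by the liver, stood at 8917, 7683, 5536 and 2748 CPM, a 3.25-fold (95% counting interval 3.17 to 3.33) difference between replicates 3 and 4. apom, an apolipoprotein of high-density lipoprotein, had 696, 451, 282 and 177 CPM, and c3a.1, a complement C3 gene, had 5168, 2466, 2009.6 and 1387 CPM. The related fetuin gene ahsg1 had 65.0, 37.6, 15.4 and 9.44 CPM, and itih3a, an inter-alpha-trypsin inhibitor chain, had 372, 265, 164 and 100.5 CPM. The fibrinogen genes fga, fgb and fgg were all in downward order, with 793, 628, 461 and 309 CPM for fgb. rbp4, the plasma retinol carrier, had 3116, 2446, 1378 and 1026 CPM, and the prothrombin gene f2 had 651, 449.9, 315 and 274 CPM. fabp10a, the liver fatty acid binding protein gene widely used to mark zebrafish hepatocytes, was not in order: it stood at 7868, 8533, 7418 and 11059 CPM, highest in replicate 4. It was 1 of 4 markers that were higher in replicate 4 than in replicate 3, none of them in order. The others were cp (968, 1309, 819 and 1867 CPM), apoba (1054, 1394, 1666 and 1611 CPM) and serpina1 (919, 1094, 798 and 1066 CPM).

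The hepatocyte markers were also read where the exocrine share was flat. Over replicates 1, 2 and 4, 17 of the 33 were in downward order and none upward, against 17.5% and 23.1% of all genes, with a median log2 ratio of -0.40. fetub was 2.80-fold and apom 2.55-fold lower in replicate 4 than in replicate 1. Both genes are in downward order over all 4 libraries, so this direction was fixed in advance. Replicate 3 was nevertheless the highest library for 28 of the 33, against 33.7% of all genes. The acute-phase gene hp, which encodes haptoglobin, was likewise in downward order (188, 126, 82.2 and 45.5 CPM), as were the interferon-response genes stat1a (38.3, 34.6, 32.5 and 23.1 CPM) and irf1b (20.1, 16.1, 15.7 and 15.3 CPM), the last within counting error. Of the 13 inflammation and acute-phase genes compared, these 3 (23.1%) were in downward order, against 10.7% of all genes. The other 10 were in neither order, and the list's median log2 ratio was 0.21.

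Lists of liver metabolism were lower towards the high-yap1 end as well. Of 38 amino acid and nitrogen metabolism genes, 17 followed the order downward, 12 of them by 2-fold, and none upward, against 10.7% and 11.1% of all genes (median log2 ratio -0.65). bhmt, which remakes methionine from homocysteine, had 2886, 1866, 1232 and 1091 CPM. tdo2a and tdo2b, which open the breakdown of tryptophan, had 359.9, 235, 152 and 138 CPM and 1151, 744, 670.5 and 420.5 CPM, and kynu, a later enzyme of that route, had 65.9, 50.7, 30.0 and 23.9 CPM. hgd, an enzyme of tyrosine breakdown, had 201, 142, 90.2 and 76.9 CPM. Without TMM factors 11 of the 38 were in downward order, none of them by 2-fold, and 1 in upward order, and the median was -0.13.

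Of 26 glycolysis and gluconeogenesis genes, 14 were in downward order, 7 of them by 2-fold, and 2 were in upward order (median -0.89), against 10.7% and 11.1% of all genes. Without TMM factors 6 of the 26 were in downward order, none of them by 2-fold, and 3 in upward order, with a median of -0.37. The downward genes included enzymes of glucose release: g6pca.2, the glucose-6-phosphatase gene, had 934, 818, 655 and 304 CPM, and fbp1b, a fructose bisphosphatase, had 676, 482, 307 and 266 CPM. gbe1b, the glycogen branching enzyme gene, had 22.9, 18.1, 12.8 and 9.72 CPM. The 2 upward genes were aldoaa, an aldolase of the A type (29.0, 41.5, 47.97 and 72.2 CPM), and eno1a, an alpha-enolase (16.4, 19.2, 20.6 and 29.7 CPM). Among 25 cytochrome P450 genes, 7 were in downward order and none in upward order (median -0.69), against 10.7% and 11.1% of all genes. Without TMM factors 1 of the 25 was in upward order and 1 in downward order, with a median of -0.17. cyp7a1, the rate-limiting enzyme of the classic route of bile acid synthesis, had 214, 88.8, 85.1 and 41.1 CPM, and cyp8b1, a later enzyme of that route, had 37.9, 28.1, 22.6 and 21.4 CPM. cyp1a, the aryl hydrocarbon receptor target, had 201, 174, 95.4 and 37.5 CPM, cyp2ad2 had 215, 187, 69.1 and 55.3 CPM, and cyp4v8 had 206, 176, 118 and 112 CPM. For cyp1a replicates 3 and 1 were close and replicate 4 was far lower, while for cyp7a1 replicate 3 stood well above the rest.

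**Figure D4:**
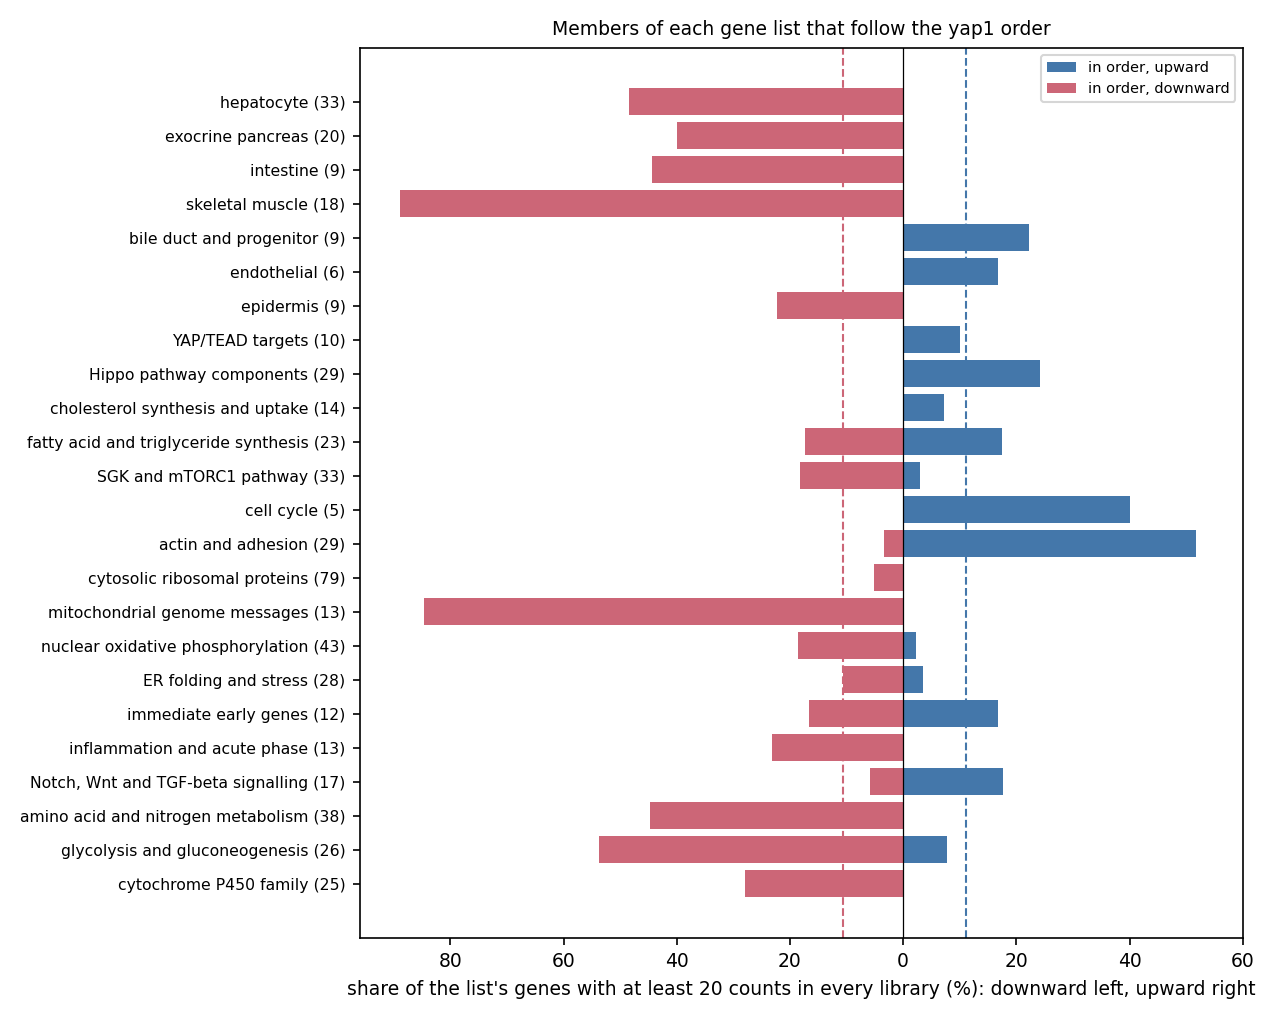
Share of each gene list's compared members (x axis, percent; the number compared is in parentheses) whose CPM was lower at each step of the yap1 order (left, red) or higher at each step (right, blue), with dashed lines at the shares over all 4729 genes, 10.7% and 11.1%. Actin and adhesion genes reach 51.7% on the right. Skeletal muscle, mitochondrial, glycolysis and gluconeogenesis, and hepatocyte lists reach 88.9%, 84.6%, 53.8% and 48.5% on the left. The endocrine pancreas, erythrocyte, macrophage and neutrophil, and stellate and mesenchymal lists had few members compared and are not drawn.

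Messages of the mitochondrial genome were lower at the high-yap1 end. Of the 13, 11 were in downward order, 10 of them by 2-fold, against 10.7% and 5.24% of all genes. All 13 were highest in replicate 3, against 33.7% of all genes (median log2 ratio -1.12). mt-nd1 and mt-nd5, subunits of complex I, had 739, 516, 372 and 296 CPM and 1008, 778, 502 and 408 CPM. mt-nd2 had 732, 642, 356 and 304 CPM, and the ATP synthase subunits mt-atp6 and mt-atp8 had 805, 604, 378 and 347 CPM and 86.0, 65.7, 40.5 and 36.4 CPM. Without replicate 3 the median was -0.80, and the other 2 messages were not in order there either. Without TMM factors, 7 of the 13 were in downward order, none by 2-fold, with a median of -0.59. Summed, the 13 messages had 19276, 15573, 10847 and 9926 CPM. They were a small part of all mitochondrial rows, which took 28.1% of the counts of replicate 3 and 19.8% of those of replicate 4.

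Of 43 nuclear genes of oxidative phosphorylation, 8 were in downward order and 1 in upward order, with 1 in each direction by 2-fold, against 10.7% and 11.1% of all genes at any size. Without replicate 3, 10 of the 43 were in upward order and 8 in downward order, against 23.1% and 17.5% of all genes, with a median log2 ratio of 0.13. cox6c, a subunit of complex IV, had 37.9, 30.7, 22.3 and 16.7 CPM. ndufa10, a complex I subunit, was in upward order, at 10.3, 12.3, 14.8 and 21.1 CPM. ndufa5 (13.1, 9.22, 8.57 and 7.78 CPM), ndufb8 (36.0, 23.1, 22.8 and 21.1 CPM) and uqcrfs1 (48.1, 31.1, 30.6 and 28.6 CPM) were each higher in replicate 3 and nearly alike in the other 3. For ndufa5 the difference between the ends was within counting error. The list's median log2 ratio was -0.25. Without TMM factors 6 of the 43 were in upward order and none in downward order, with a median of 0.28. The sign of 5 other list medians turned in the same way, among them 2 described here: 79 cytosolic ribosomal protein genes had -0.37 against 0.155, and 28 genes of endoplasmic reticulum folding and stress had -0.35 against 0.17. Few of these were in order. The shares in downward order were 5.06% and 10.7%, against 10.7% of all genes. In upward order they were 0% and 3.57%, against 11.1%. Most ribosomal protein genes shared another shape. After TMM scaling, 73 of the 79 were highest in replicate 3, against 33.7% of all genes. Lowest in replicate 2 were 73, against 888 of all 4729 genes. Among ribosomal protein genes 4 were in downward order, namely rpl38 (322, 185, 162 and 131 CPM), rps28 (380.0, 268, 223 and 209 CPM), rps24 (566, 426, 357 and 325 CPM) and rpl11 (328, 277, 231 and 221 CPM). Among the endoplasmic reticulum genes, ssr1 (100, 73.8, 68.0 and 64.7 CPM), sec61a1 (619.9, 428, 414 and 409 CPM) and the stress sensor atf6 (72.0, 67.6, 64.8 and 50.8 CPM) were in downward order and atf4b (47.2, 51.1, 54.5 and 68.9 CPM) in upward order. ssr1 and sec61a1 serve protein entry into the endoplasmic reticulum.

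Of the 10 genes in downward order with the largest differences, 5 are skeletal muscle genes and 1 is an intestine gene. Skeletal muscle genes were in downward order in 16 of 18 cases, all 16 by 2-fold, against 10.7% and 5.24% of all genes, with a median log2 ratio of -2.52. mylpfa, a fast-muscle myosin light chain, had 178, 64.9, 48.5 and 14.7 CPM, so that replicate 4 held 0.0827 times the level of replicate 3 (95% counting interval 0.0608 to 0.11). mylz3, another light chain, had 54.7, 15.4, 15.1 and 6.67 CPM. The muscle calcium pump gene atp2a1 had 79.0, 46.1, 24.6 and 9.44 CPM, the parvalbumin gene pvalb1 78.5, 34.6, 18.6 and 10.00 CPM and the muscle creatine kinase gene ckmb 112, 58.4, 41.4 and 14.4 CPM. Without replicate 3, 17 of the 18 were in downward order, against 17.5% of all genes, with a median of -1.73. Without TMM factors 12 of the 18 were in downward order. acta1a, a muscle actin gene below the count floor in replicate 3, was in upward order, with 10, 59, 97 and 116 counts. Its paralog acta1b, also below the floor there, had 14, 21, 69 and 60 counts. Other muscle genes below the floor in some library went the other way, such as myl1 with 26, 22, 12 and 3 counts.

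Exocrine pancreas genes had another shape. All 20 compared were highest in replicate 3, against 33.7% of all genes, with a median log2 ratio of -2.32. In downward order were 8 of the 20, against 10.7% of all genes. Over replicates 1, 2 and 4 the median was -0.11, with 4 in upward order and 8 in downward order, against 23.1% and 17.5% of all genes. Without TMM factors none of the 20 was in upward order and 1 in downward order, with a median of -1.80. amy2a, a pancreatic amylase, had 2319, 515, 475 and 396 CPM, and cpa5, a carboxypeptidase, had 2185, 467, 441 and 438 CPM. The trypsin gene prss1 had 1783, 435, 418 and 381 CPM. The elastase genes ela2 (1386, 332, 235 and 179 CPM) and ela2l (1680.5, 401, 393 and 254 CPM) and the lipase gene cel.1 (469.8, 124, 119.9 and 92.8 CPM) were lower in replicate 4 as well. In these genes the first step carried most of the difference, and amy2a and ela2 were lower at each step by more than counting error. The 12 exocrine genes in neither order included cpb1 (1552, 371, 396 and 433 CPM) and ctrb1 (1498, 319, 324 and 346 CPM). Intestine genes showed the same high first library: all 9 were highest in replicate 3, against 33.7% of all genes (median -1.99). Of the 9, 4 were in downward order, against 10.7% of all genes. These were the retinol carriers rbp2a (65.9, 13.4, 7.42 and 7.22 CPM) and rbp2b (89.3, 44.95, 23.1 and 18.6 CPM) and the apolipoproteins apoa1a (162, 49.2, 41.4 and 35.5 CPM) and apoa4b.1 (436, 264, 248 and 245 CPM). Of 9 epidermis genes, 2 were in downward order (22.2%), against 10.7% of all genes (median -1.28). They were the keratin cyt1 (17.8, 10.4, 6.28 and 5.83 CPM) and the periplakin gene ppl (46.3, 36.5, 22.8 and 20.3 CPM).

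The 10 genes in downward order with the largest differences also included lect2l, a leukocyte chemotaxin-like gene (259.9, 27.7, 22.8 and 22.2 CPM). The rest of these 10 were rnasel3, a secreted ribonuclease (63.6, 16.5, 16.3 and 5.55 CPM), upp2, a uridine phosphorylase (88.8, 49.6, 33.4 and 9.17 CPM), and cpb2, a carboxypeptidase (61.2, 25.7, 14.6 and 7.499 CPM). lect2l was 11.7-fold higher in replicate 3 than in replicate 4, with the other 3 libraries close together, whereas upp2 and cpb2 were lower at each step by more than counting error. Another 3 clone-named genes in this range were passed over. hbae3, an embryonic globin, had 20.6, 11.5, 10.8 and 7.499 CPM and was the 1 erythrocyte marker with enough counts. Among genes in downward order, c5 lay just inside the 2-fold limit at 2.002-fold and gcat just outside at 1.993-fold.

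Of 23 genes of fatty acid and triglyceride synthesis, 4 were in upward and 4 in downward order, against 11.1% and 10.7% of all genes, with a median log2 ratio of 0.12. Without TMM factors 5 of the 23 were in upward order and 3 in downward order, with a median of 0.64. dgat2, which makes the last step of triglyceride synthesis, had 186, 101, 70.2 and 48.05 CPM, and lpin2, a phosphatidate phosphatase, had 340.3, 228, 190.5 and 137 CPM. acss2l, an acetyl-CoA synthetase, was also in downward order (39.7, 28.1, 23.4 and 18.9 CPM). The genes in upward order included elovl1b, a fatty acid elongase (10.8, 19.98, 22.6 and 37.8 CPM), acaca, which makes malonyl-CoA (49.1, 51.9, 70.0 and 78.9 CPM), and agpat3 (66.4, 66.8, 89.1 and 106 CPM). fasn, the fatty acid synthase gene, had 139, 111, 159 and 159 CPM, and its regulator srebf1 had 102, 87.2, 104 and 111 CPM, both with replicate 1 lowest.

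Of 14 cholesterol synthesis and uptake genes, 1 was in upward order and none in downward order, against 11.1% and 10.7% of all genes. The 1 gene was srebf2, the master regulator of the route (58.9, 73.4, 97.4 and 101 CPM). hmgcra, the rate-limiting reductase, had 36.5, 59.9, 168 and 144 CPM and hmgcs1, the synthase before it, 12.15, 16.1, 47.97 and 26.9 CPM, both highest in replicate 2. Replicate 2 was the highest library for 9 of the 14, against 1230 of all 4729 genes. The list's median log2 ratio was -0.05, and 0.47 without TMM factors.

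Of 33 genes of the SGK and mTORC1 pathway, 1 was in upward order and 6 in downward order, 2 of them by 2-fold, and 7 were level, against 11.1%, 10.7% and 14.7% of all genes. The median log2 ratio was -0.27. Without TMM factors the counts turned round, to 6 in upward order and none in downward order, with a median of 0.25. sgk1, the kinase gene, had 672, 716, 893 and 752 CPM, and mtor had 46.8, 44.95, 55.7 and 56.9 CPM, neither of them in order. pik3r1, a regulatory subunit of phosphoinositide 3-kinase, had 164, 108, 99.9 and 70.3 CPM, and ulk1a, which starts autophagy, had 15.4, 13.8, 11.4 and 7.22 CPM. The translation repressors eif4ebp3 (61.2, 51.9, 46.8 and 40 CPM) and eif4ebp3l (47.7, 38.0, 37.4 and 27.22 CPM) were in downward order, as was slc3a2b, an amino acid transporter subunit (15.9, 13.4, 12.3 and 11.1 CPM), within counting error. tsc2 (20.6, 21.1, 21.1 and 21.9 CPM), akt2 (37.9, 42.3, 39.4 and 37.8 CPM) and eif4ebp1 (24.8, 24.2, 28.8 and 27.5 CPM) were level.

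The 10 level genes with the highest mean CPM had the following levels. The chaperone genes hsp90ab1 and hspa8 averaged 4913 ± 297 CPM and 3168 ± 107 CPM (SD, n = 4). The elongation factor genes eef2b, eef1a1l1 and eef1g averaged 3893 ± 299 CPM, 3133 ± 215 CPM and 714 ± 66.6 CPM. The ribosomal protein genes rpl4 and rpl6 averaged 843 ± 71.9 CPM and 879 ± 77.5 CPM. hdlbpa, an RNA-binding vigilin, averaged 992 ± 70.7 CPM, serbp1a, an RNA-binding ribosome factor, 782 ± 58.8 CPM, and soul5, a heme-binding protein gene, 573 ± 41.6 CPM. In none of these 10 were the 4 libraries in order. hspa8 was the tightest, with its highest library 1.09 times its lowest. Level here means level relative to the median gene: without TMM factors the median gene itself was higher in replicate 4, by 0.53 on the log2 scale.

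The strictest reading keeps genes in which each of the 3 steps was larger than counting error. Of all 4729 genes it left 32 upward, 24 of them by 2-fold, and 112 downward, 95 of them by 2-fold. Genes with many counts pass it more readily, because their counting error is smaller. The upward genes among them included bcam, flna, sptb, sema3b, dspb, dennd2b, myh9b, msna, actb1, actb2, tpm3 and krt18a.1. The downward genes included 13 of the 33 hepatocyte markers, 9 of the 13 mitochondrial messages, 8 of the 18 muscle genes and 2 of the 20 exocrine genes compared. These counts stand beside 112 of all 4729 genes. The median step of the 157 upward genes was 0.58, 0.39 and 0.30 on the log2 scale from replicate 3 to 1, 1 to 2 and 2 to 4. The corresponding steps of yap1 were 1.04, 0.75 and 0.37. Over all genes the median size of a step, in either direction, was 0.27, 0.26 and 0.24.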

How the data were processed

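Total RNA sequencing of zebrafish larval livers was used, 4 lf:YAP libraries with paired reads of 75 bases at a stated 15M reads per sample, per the labels' protocols. The authors deposited whole-number counts per gene and library, and a CPM value equal to the count over the column total. The submitters' processing notes name HISAT2 2.1.0, featureCounts 1.6.0, cutadapt 1.16, limma 3.40.6 and the build danRer10, without roles. No annotation or strand setting was given in the sources used here, so antisense and overlapping genes, and near-identical paralogs such as actb1 and actb2, may share or lose reads.

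Rows without a gene name (6518 of 35117; 1.04% to 2.55% of the counts of a library) were left out, and of 405 symbols on more than 1 row the row with the most counts was kept. Libraries were ordered by yap1 after TMM scaling in edgeR 4.0.16 (R 4.3.3); median-of-ratios factors from DESeq2 1.42.0 were an alternative. Neither tool was used for a test. Genes needed 20 counts in each library. A gene was in order when its CPM went 1 way at each step, and level when its highest library was at most 25% above its lowest. Intervals are exact 95% binomial intervals (Clopper-Pearson for shares, conditional for ratios; scipy 1.17.1) and cover counting error only. Named genes were yap1, amotl2b, lats2 and nuak2 and, among genes in order, the 10 largest differences each way (clone names passed over). They also included the 10 nearest profiles, the 10 level genes with the highest mean CPM and up to 5 ordered members per list with the largest differences. Others named were chosen after their values were seen. The members and lists were chosen with earlier results of these data known. The classification was run on simulated counts that held counting error only, with no other difference between pools. It therefore checked the procedure and not the calls made here. Genes are given by symbol, and sequences and coordinates were not used here. Some named items are not reported here.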

Additional observations from a re-analysis of the deposited data

Results flagged for a closer look

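Of 138 measures examined over the 4 lf:YAP libraries, 16 had 1 library apart from the other 3, by the gap to the nearest library over the whole range. The measures were the named genes, yap1 among them, the marker shares and whole-library values such as totals and TMM factors. Chance alone sets about 1 in 20 groups apart, and these measures are not independent, since many come from the same tissues. In 14 of the 16 the library apart was replicate 3, the one with the least yap1. A gene in strict order can only have replicate 3 or replicate 4 apart, and most named genes were chosen for being in order. For the single genes, neither the library apart nor an excess over 1 in 20 is therefore a finding. The exocrine pancreas share had a gap of 0.933 (1.52% in replicate 3 against 0.418% to 0.492%) and the intestine share 0.869 (0.123% against 0.0542% to 0.0633%). Of single exocrine genes, cpa5 had a gap of 0.983, amy2a 0.938, cel.1 0.917, ela2l 0.897 and ela2 0.874. Of intestine genes, apoa4b.1 had 0.901, rbp2a 0.894 and apoa1a 0.892. lect2l had 0.977, with 259.9 CPM in replicate 3 against 22.2 to 27.7 CPM. Of housekeeping genes, sec61a1 had 0.913, uqcrfs1 0.871 and ndufb8 0.869. Among replicates 1, 2 and 4 these genes still differed to different degrees: from replicate 1 to replicate 4 the level was 1.86-fold lower for rbp2a, 1.85-fold for ela2 and 1.57-fold for ela2l, and 1.04-fold for sec61a1. Each step of ela2 and amy2a was larger than counting error. In the other 2 measures the library apart was replicate 4: notch2 with a gap of 0.861 (43.6 CPM against 27.11 to 29.4) and hmgb2b with 0.830 (31.9 CPM against 11.7 to 15.1).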

How the results depend on the processing

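No paired analysis was possible because the results come from no test and only the lf:YAP libraries were used. The order by yap1 was the same under each scaling, and with median-of-ratios factors each count was within 1.5 times the one reported. Without TMM factors, 1191 genes were in upward order (575 by 2-fold), 174 in downward order (87) and 321 level. With totals lacking ribosomal RNA, mitochondrial and other-tissue rows, 811 were upward (303) and 320 downward (152). A floor of 10 counts gave 241 upward by 2-fold. A floor of 50 gave 259 upward (62), 315 downward (154) and 398 level, and a floor of 1 gave 1062 upward (535) and 1239 downward (826). A 1.5-fold limit gave 358 upward and 394 downward and, for level genes, 2218; a 3-fold limit gave 33 and 119, and a 1.1-fold limit left 74 level. With each step clear of counting error, 32 (24) were upward and 112 (95) downward. When steps against the order were allowed within counting error, an alternative chosen after seeing the data, 376 were downward by 2-fold. With 1 library left out in turn, 1061 to 1245 genes were upward (79 to 245 by 2-fold), 941 to 1267 downward (159 to 389) and 1182 to 1690 level; the fewest by 2-fold came without replicate 3, where 32 of the 79 upward and 117 of the 159 downward genes were among those reported. As a share of counts without ribosomal RNA and mitochondrial rows, exocrine markers held 3.67%, 0.955%, 1.04% and 0.911%.

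The median log2 ratio turned positive without TMM factors for 6 of the 28 lists: stellate and mesenchymal (0.16), cytosolic ribosomal protein (0.155), endoplasmic reticulum (0.17), nuclear oxidative phosphorylation (0.28), SGK and mTORC1 (0.25) and cholesterol (0.47) genes. Without 1 library it ranged from -0.35 to 0.037 for endoplasmic reticulum genes and from -0.61 to 0.14 for the 1 endocrine pancreas gene compared; both positive values came without replicate 3, where 5 list medians changed sign, against 3 without replicate 4. The causes were not tested. Of the 122 named genes, 12 changed sign under at least 1 scaling or left-out library, 7 of them without TMM factors (hspa8, hdlbpa, eef1g, soul5, irf1b, atf6 and slc3a2b) and 4 without replicate 3 (hspa8, hdlbpa, eef1g and hsp90ab1); none of the 12 had a 2-fold difference, the largest being 0.52 on the log2 scale, while 50 moved by more than their SD over the libraries without TMM factors and 55 without replicate 3. The planned search of promoters for a TEAD motif was not run. With 4 libraries of 2668432 to 3170508 counts on named genes, small differences in genes near 20 counts could not be told from counting error.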
